A study of Mus musculus with 9 samples.

Results

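The genes described are 9 genes of the acute phase response and of iron and haem handling: Saa3, Hp, Cp, Hmox1, Blvrb, Fth1, Ftl1, Tfrc and Ireb2. They were taken by gene symbol from the FPKM table of 55322 genes, in which each has 1 row, and all 9 had reads in every library. RNA sequencing was performed on 9 libraries in 3 groups of 3, from WT C57BL/6 mice. CD11b- B cells and CD11b+ B cells were sorted from the bone marrow (BM) 48 h after an intraperitoneal injection of lipopolysaccharide (LPS, 5 mg/kg), and CD11b is the integrin subunit that usually marks myeloid cells. Peritoneal macrophages (PMs, sorted as CD11b+F4/80+ cells) came from naive mice that received no LPS, so cell type, tissue and treatment cannot be told apart in any comparison of B cells with PMs. There was no BM B cell library from naive mice, and an effect of LPS itself was not measured. Before the sort of B cell lineages, cells carrying CD3, CD4, CD8, Gr-1, NK1.1 or TER119 were depleted, which is a step directed at T cells, granulocytes, NK cells and erythroid cells. The age and sex of the animals are not given in the sources used here. The paper plots FPKM of myeloid genes with SD, which it uses for biological replicates. It does not state whether each library of a group came from a separate mouse. P-values therefore measure only the spread between these libraries.

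During the acute phase response, inflammatory cytokines change the production of plasma proteins, many of which bind iron, haem or lipids. Those that bind iron or haem can keep iron away from bacteria. Serum amyloid A3 (Saa3) is an acute phase apolipoprotein made outside the liver, with macrophages among its known sources, haptoglobin (Hp) binds free haemoglobin, and ceruloplasmin (Cp) is a copper-carrying ferroxidase. Inside cells, haem oxygenase 1 (Hmox1) opens the haem ring and releases iron, biliverdin reductase A (Blvra) reduces the biliverdin that it makes, and biliverdin reductase B (Blvrb) reduces flavins and other isomers of biliverdin. Iron that is not used is stored in ferritin, a shell of heavy (Fth1) and light (Ftl1) chains, and transferrin receptor 1 (Tfrc) imports transferrin-bound iron. Iron regulatory protein 2 (Ireb2) binds iron-responsive elements, hairpins that hold back ferritin translation and stabilise Tfrc mRNA when iron is low. These last controls act largely after transcription, and only mRNA was measured.

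The depth of the libraries was 18014658 to 35251215 reads on genes. The sorted identities were visible in the marker genes: the summed level of 13 B cell genes was 13240 to 16395 FPKM (reads scaled to exon length and to the reads on genes of the library) in the 6 B cell libraries and 134 to 264 in the PMs, and that of 16 monocyte and macrophage genes was 26213 to 63657 in the PMs. Itgam, which encodes CD11b, was at 0.251 to 0.869 FPKM in the CD11b- libraries, 1.31 to 1.92 in the CD11b+ libraries and 251 to 358 in PMs. Its difference between the B cell groups was not called by limma. Replicate 3 of each B cell group stood apart by its B cell precursor genes, which summed to 193 FPKM in CD11b- replicate 3 and 48.7 in CD11b+ replicate 3, and to 3.9 or less in the other B cell libraries. The 7 plasma cell genes were also highest there, with sums of 102, 105 and 174 FPKM in CD11b- replicates 1, 2 and 3. In CD11b+ replicates 1, 2 and 3 the plasma cell sums were 239, 217 and 609 FPKM. Proliferation genes were lowest in replicate 3 of each B cell group. The 16 neutrophil genes summed to 2.08 to 3.27 FPKM in the CD11b- libraries, to 710, 1657 and 223 in CD11b+ replicates 1, 2 and 3 and to 171 to 252 in PMs. The 15 genes found of the erythroid list summed to 2.32 to 25.7 FPKM in the CD11b- libraries, 39.6 to 50.5 in the CD11b+ libraries and 1.54 to 1.97 in PMs. In sorted bulk samples, fewer cells of a type and less RNA per cell cannot be told apart.

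No gene of the 9 passed the main test between CD11b+ and CD11b- B cells. Every CD11b+ library exceeded every CD11b- library for Saa3, Hp, Cp and Hmox1, the reverse held for Tfrc, and the groups overlapped for Blvrb, Fth1, Ftl1 and Ireb2. Complete separation of this kind was found for 8.63% of all 21778 genes tested in the upward direction and for 6.32% in the downward direction. By the main test (limma on log2(FPKM + 1), Benjamini-Hochberg over all genes tested, threshold 0.05), 0 of the 9 genes were called higher and 0 lower, and the test called 0.0689% of all genes higher and 0% lower. That share stands for 15 genes, and it was 3, 4 or 7 genes without CD11b- replicate 1, 2 or 3, 5 without CD11b+ replicate 1 or 2, and 40 without CD11b+ replicate 3. At an unadjusted p under 0.05, 3 genes were higher (Saa3, Hp and Hmox1) and 0 lower, against 4.65% and 3.04% of all genes. The count tests on the reads behind the values gave different counts. The edgeR test called 0 of the 9 genes, and 0.269% of all genes higher and 0% lower. DESeq2 called 2 of the 9 genes higher (Hmox1 and Hp) and 0 lower, and 1.93% of all genes higher and 0.287% lower. The median difference of the 9 genes was 0.24 on the log2 scale, beside 0.03 for all genes tested.

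Against PMs, both B cell groups had lower levels of storage, haem and acute phase genes and higher levels of the importer Tfrc and the regulator Ireb2. In CD11b+ B cells, limma called 6 genes lower than in PMs (Saa3, Hp, Cp, Hmox1, Blvrb and Ftl1) and 2 higher (Tfrc and Ireb2), and Fth1 did not pass. Among all 22102 genes tested in that comparison, 8.78% were called lower and 21.5% higher. In CD11b- B cells, 7 genes were called lower, Fth1 included, and the same 2 were called higher, beside 11.0% and 25.8% of 20985 genes. No gene of the 9 overlapped between B cells and PMs in either comparison, with 2 above and 7 below the PMs, and complete separation was found for 34.3% of all genes above and 12.4% below in CD11b+ B cells, and for 36.1% and 15.2% in CD11b- B cells. The medians of the 9 genes were -2.25 for CD11b+ and -2.54 for CD11b- B cells, beside 0.25 and 0.24 for all genes. These comparisons share the PM libraries. They also depend on scaling: median-ratio scaling brought the median over all genes to 0.13 and 0.07 and the share of calls that were higher in B cells from 71.0% to 53.3% for CD11b+ and from 70.1% to 52.5% for CD11b- B cells. The direction of each of the 9 genes against PMs was the same under every scaling tried.

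**Figure D1:**
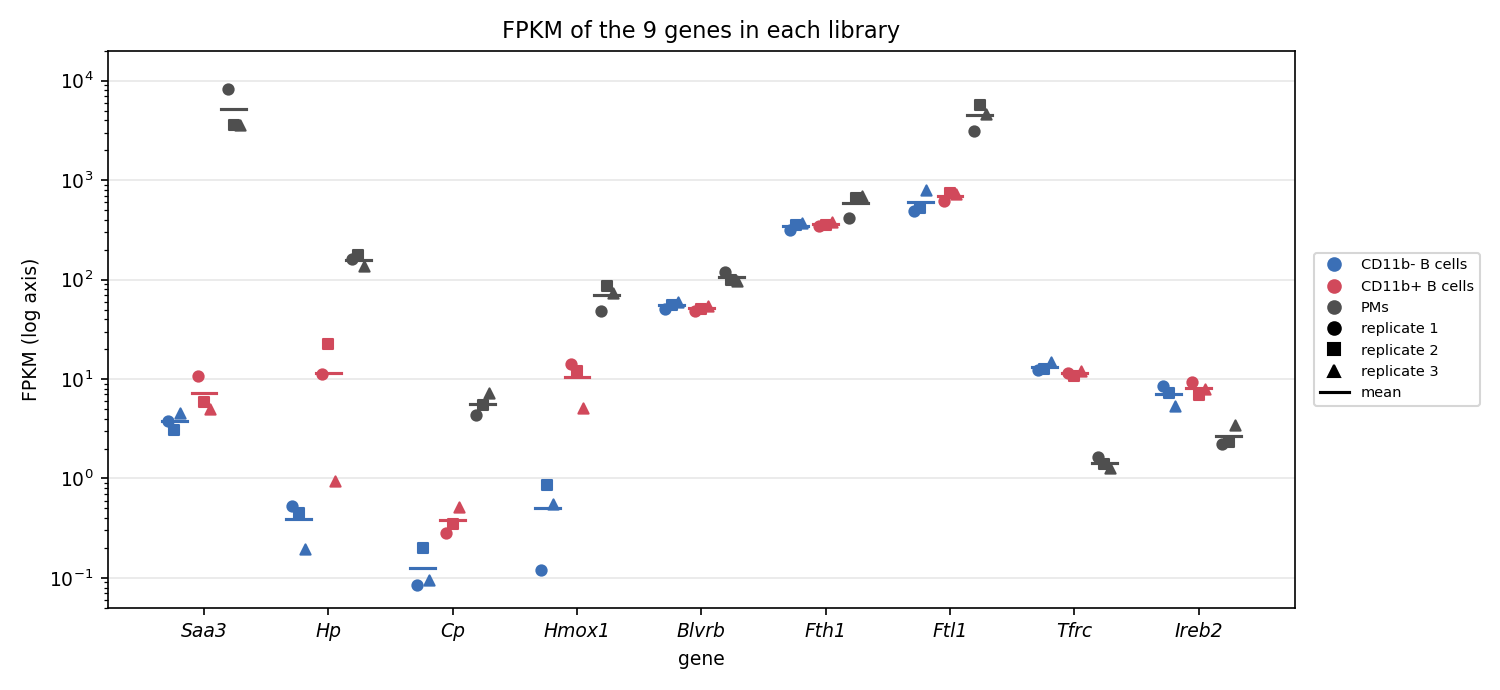
FPKM of the 9 genes on a log axis, with 1 point per library, colour for the group, shape for the replicate number and a line at the group mean. Saa3 spans the widest range, from 3.09 FPKM in a CD11b- library to 8254 in a PM library, and Tfrc and Ireb2 are the genes with PM points below all B cell points.

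**Figure D2:**
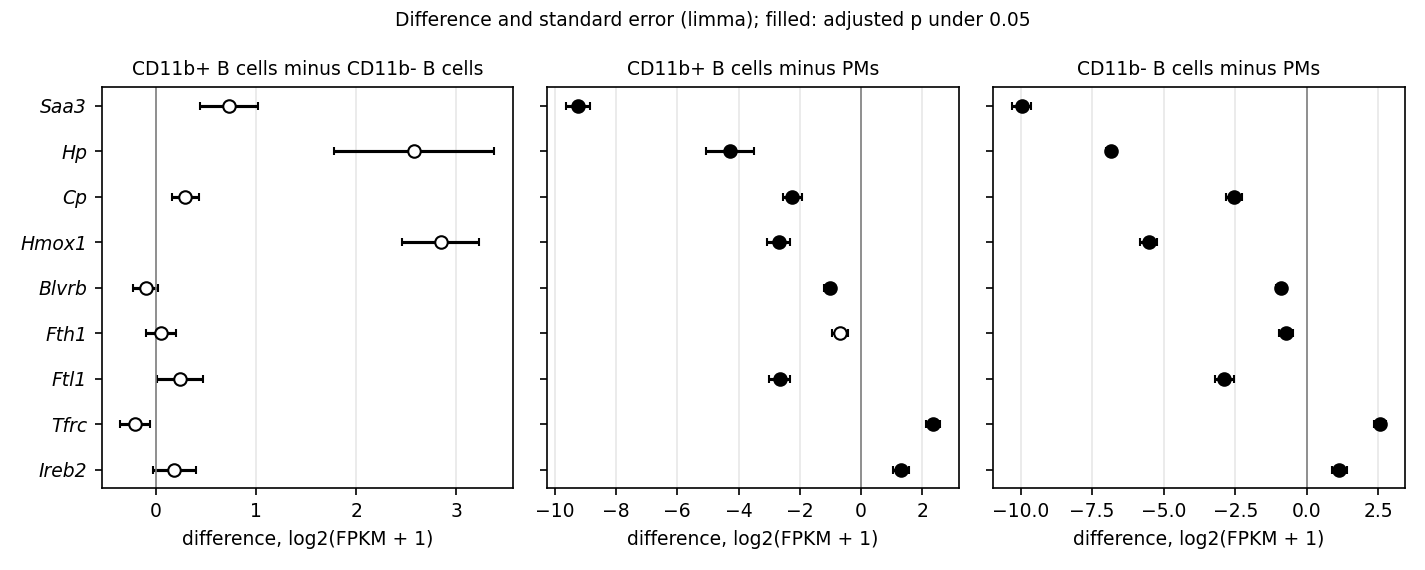
Differences in log2(FPKM + 1) between groups for the 9 genes, with bars for the standard error of the limma fit and filled points for an adjusted p under 0.05. The left panel has 0 filled points, the middle panel has 8 and the right panel has 9, and the horizontal axes differ between panels.

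The order of the levels differed between the cell types. In both B cell groups Ftl1 stood first, followed by Fth1 and Blvrb, and Cp stood last. In CD11b- B cells the means ran from 605 FPKM for Ftl1 over 349 for Fth1, 55.1 for Blvrb, 13.3 for Tfrc, 7.04 for Ireb2, 3.78 for Saa3, 0.508 for Hmox1 and 0.388 for Hp to 0.126 for Cp. The values of Hmox1 overlapped with those of Hp, and those of Hp with those of Cp, and the other neighbours in this order did not overlap. In CD11b+ B cells Hp, Tfrc, Hmox1, Ireb2 and Saa3 had means between 7.22 and 11.6 FPKM and each overlapped with the next in this order. In PMs Saa3 was first with 5143 FPKM, followed by Ftl1 with 4512, and these overlapped; then came Fth1 with 592, Hp with 158, Blvrb with 105, Hmox1 with 69.2, Cp with 5.66, Ireb2 with 2.67 and Tfrc with 1.44. Saa3 was the 9th and Ftl1 the 10th most abundant of the 17840 genes with a mean of at least 0.05 FPKM in PMs.

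Saa3 (ENSMUSG00000040026, chr7:46711998-46715700 on the minus strand, GRCm38) was measured at 8254, 3608 and 3567 FPKM in PMs, at 10.7, 5.94 and 5.00 in CD11b+ B cells, and at 3.75, 3.09 and 4.51 in CD11b- B cells. It took 0.930% to 2.15% of all reads on genes in PMs, so PM replicate 1 held more of this transcript than the other two. The group means were 5143 ± 2695, 7.22 ± 3.08 and 3.78 ± 0.712 (SD, n = 3 each). The lowest CD11b+ library was 1.11 times the highest CD11b- library, and the difference of 0.73 ± 0.28 (log2, SE) had an adjusted p of 0.638 by limma and of 0.178 to 0.830 over 15 alternatives. Against PMs, Saa3 was lower by 712-fold in CD11b+ B cells (limma log2 difference -9.23 ± 0.39, adjusted p = 2.5e-06) and by 1359-fold in CD11b- B cells (limma log2 difference -9.96 ± 0.34, adjusted p = 1.0e-06), with every B cell library below every PM library. The mean in CD11b- B cells was 0.0736% of that in PMs. The 8 genes of the peritoneal macrophage list stood at 0.0682% (Timd4) to 11.0% (Icam2) of their PM means in the same cells, and Timd4 was the only one with a lower share than Saa3. In CD11b+ B cells the share was 0.140% for Saa3 and 0.105% (Alox15) to 9.72% (Icam2) for the list, with Alox15 and Prg4 (0.120%) below Saa3. The part of PM RNA in the Saa3 reads of the B cell libraries was not tested.

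Upstream sequence of Saa3 (226 bases, chr7:46715701-46715926, minus strand) is shown because Saa3 had the largest fold of the 9 genes between B cells and PMs. The bases come from the RefSeq promoter window on GRCm38.p6 and end at the base before the GENCODE M21 gene, and the RefSeq start lies 25 bases further downstream, at position 46715676. The capitals mark 4 matches to TTNCNNAA on either strand, a loose form of the site of the C/EBP factors, which drive many acute phase genes.
Saa3: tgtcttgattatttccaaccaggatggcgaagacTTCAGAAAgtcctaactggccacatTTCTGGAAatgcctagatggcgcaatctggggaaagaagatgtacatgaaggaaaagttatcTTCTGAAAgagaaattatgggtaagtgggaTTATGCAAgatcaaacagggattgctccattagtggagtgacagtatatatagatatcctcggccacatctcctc
Among 32851 RefSeq promoter windows (250 bases before to 50 after a start), 40.7% held the motif at least once and 0.852% at least 4 times. Windows were found for 7 of the 9 genes, and 4 of the 7 held the motif. The STAT3 letters TTCNNNGAA, in 8.3% of all windows, and a degenerate NF-kB motif, in 50.8%, were searched on both strands and were not in the Saa3 window. The gene of one C/EBP factor, Cebpb, was at 62.6, 28.8 and 20.8 FPKM in PMs and at 0.264 or less in every B cell library. That of another, Cebpd, had means of 8.23 FPKM in PMs, 0.501 in CD11b+ and 0.193 in CD11b- B cells. Binding of these factors to the Saa3 letters, and a part of theirs in the Saa3 difference, was not tested.

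Hp (ENSMUSG00000031722, chr8:109575128-109579172, minus strand) varied most among CD11b+ libraries. It was measured at 11.3, 22.6 and 0.936 FPKM in CD11b+ B cells, at 0.522, 0.446 and 0.194 in CD11b- B cells, and at 162, 175 and 138 in PMs. CD11b+ replicate 3 was close to the CD11b- libraries, at 1.79 times the highest of them, while CD11b+ replicates 1 and 2 were far above. The means were 11.6 ± 10.8, 0.388 ± 0.172 and 158 ± 18.5 FPKM (SD, n = 3 each). The 29.9-fold difference between the B cell means did not pass in limma (log2 difference 2.58 ± 0.80, adjusted p = 0.500), and it did pass in DESeq2 (adjusted p = 0.00163) and in limma without CD11b+ replicate 3 (log2 difference 3.62, adjusted p = 0.0258). Without CD11b+ replicate 2 the log2 difference was 1.82 and the fold was 15.8. Against PMs, Hp was lower by 13.6-fold in CD11b+ B cells (limma adjusted p = 0.00489) and by 408-fold in CD11b- B cells (limma adjusted p = 4.7e-07). Without CD11b+ replicate 2 the fold for CD11b+ B cells was 25.9 (limma log2 difference -5.02, adjusted p = 0.00612), and without CD11b+ replicate 3 the log2 difference was -3.22, from -4.26 with all libraries.

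The summed level of the neutrophil genes had the same order as Hp in the CD11b+ libraries. It was 710, 1657 and 223 FPKM in CD11b+ replicates 1, 2 and 3, highest where Hp was highest and lowest where Hp was lowest. Of the 16 genes, 11 had that order themselves and 5 did not: Mpo, Elane, Prtn3 and Ctsg, which encode proteins of primary granules, were highest in replicate 1, and Ly6g was lowest there. All 16 neutrophil genes had a higher mean in CD11b+ than in CD11b- B cells, 15 of them with an unadjusted p under 0.05 (4.65% of all genes), and 3 were called by limma (S100a8, S100a9 and Retnlg), beside 0.0689% of all genes. S100a8, a calcium-binding protein of neutrophils and monocytes, was at 180, 428 and 88.1 FPKM in the CD11b+ libraries and at 0.619 to 1.04 in the CD11b- libraries. Hp amounted to 1.59%, 1.36% and 0.420% of the neutrophil sum in the CD11b+ libraries, and to 69.4% to 81.0% of it in PMs, where Prtn3 alone made up 70.9% to 86.4% of the sum, against 0.248% to 0.731% in the CD11b+ libraries, so the percentages of these cell types are not comparable. The part of neutrophil RNA in the Hp values of CD11b+ B cells was not tested.

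**Figure D3:**
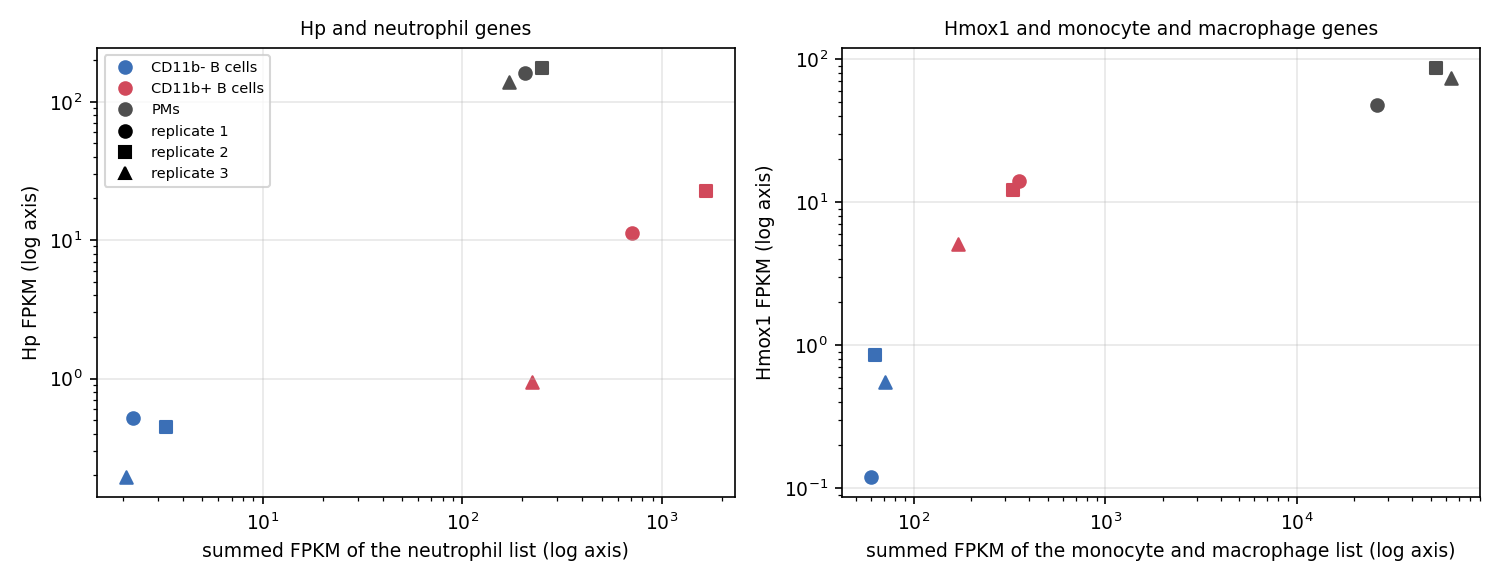
Left, Hp FPKM against the summed FPKM of 16 neutrophil genes; right, Hmox1 FPKM against the summed FPKM of 16 monocyte and macrophage genes, each point a library and all axes logarithmic. CD11b+ replicate 3 (red triangle) is the lowest CD11b+ point on both axes of both panels, with Hp at 0.936 and Hmox1 at 5.09 FPKM.

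Cp (ENSMUSG00000003617, chr3:19957054-20009145, plus strand) was the least abundant of the 9 genes in B cells. Its values were 0.0846, 0.198 and 0.0946 FPKM in CD11b- B cells (27, 66 and 29 reads), 0.281, 0.347 and 0.516 in CD11b+ B cells (79, 87 and 174 reads), and 4.30, 5.51 and 7.18 in PMs. The CD11b+ values all lay above the CD11b- values, and both lay well below the PMs. The 3.04-fold difference between the B cell groups did not pass (limma log2 difference 0.29 ± 0.14, adjusted p = 0.676). Against PMs the levels were lower by 14.8-fold in CD11b+ B cells (limma log2 difference -2.25, adjusted p = 0.00113) and by 45.1-fold in CD11b- B cells (limma log2 difference -2.54, adjusted p = 0.000407); the log2(FPKM + 1) scale understates such folds at low levels, and on reads the edgeR difference for CD11b+ B cells was -4.40. Cp shares exon bases with Hps3 on the opposite strand, which had up to 3399 reads in a library. No source used here gives the strand setting of the counting, so the few reads on Cp in B cells are uncertain.

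Hmox1 (ENSMUSG00000005413, chr8:75093621-75100589, plus strand) had the highest ratio of the lowest CD11b+ to the highest CD11b- library of the 9 genes, while the fold between the means was larger for Hp. The CD11b- libraries had 0.120, 0.851 and 0.552 FPKM (7, 52 and 31 reads) and the CD11b+ libraries 14.0, 12.1 and 5.09 FPKM (721, 553 and 314 reads). That ratio was 5.98, and the means were 10.4 ± 4.70 and 0.508 ± 0.368 FPKM (SD, n = 3 each), a 20.5-fold difference, or 30.9-fold without CD11b- replicate 2. The limma difference of 2.85 ± 0.38 (log2, SE) narrowly missed the threshold (adjusted p = 0.0726, unadjusted p = 7.7e-05), as did the edgeR test (adjusted p = 0.0511), and DESeq2 passed it (adjusted p = 2.0e-12). It was also passed in limma when only genes with a mean of at least 1 FPKM were tested (adjusted p = 0.0321), when all 9 libraries were fitted together (adjusted p = 0.0170), with a pseudocount of 0.1 (adjusted p = 0.0492) and without CD11b+ replicate 3 (adjusted p = 0.0253). Over the 15 alternatives the adjusted p reached 0.350 and the log2 difference stayed between 2.59 and 4.33.

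In PMs Hmox1 was at 47.8, 86.3 and 73.5 FPKM, above every B cell library. It was lower than in PMs by 6.66-fold in CD11b+ B cells (limma log2 difference -2.68, adjusted p = 0.00126) and by 136-fold in CD11b- B cells (limma log2 difference -5.53, adjusted p = 8.2e-06), or 206-fold without CD11b- replicate 2. The summed level of the monocyte and macrophage genes had the same order as Hmox1 in CD11b+ replicates 1, 2 and 3, at 355, 331 and 170 FPKM, and was 60.0 to 70.8 in CD11b- B cells. Lyz2 alone made up 38.4% to 73.6% of this sum in the CD11b+ libraries, and of the 16 genes 6 had the order of Hmox1 themselves and 10 did not. The mean of all 16 of these genes was higher in the CD11b+ group, for 13 with an unadjusted p under 0.05 (4.65% of all genes), and limma called 0 of them. Hmox1 was 2.99% to 3.95% of this sum in CD11b+ B cells, 0.200% to 1.35% in CD11b- B cells and 0.115% to 0.182% in PMs. Lyz2 made up 71.2% to 83.3% of the sum in PMs, so the percentages of B cells and PMs are not comparable. The part of monocyte or macrophage RNA in the Hmox1 level of CD11b+ B cells was not tested.

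Blvrb (ENSMUSG00000040466, chr7:27447978-27466144, plus strand), the flavin and biliverdin reductase, had overlapping levels in the B cell groups. It was at 50.5, 55.6 and 59.3 FPKM in CD11b- B cells and at 48.1, 50.9 and 54.6 in CD11b+ B cells (limma log2 difference -0.10 ± 0.13, adjusted p = 0.777). PMs had 120, 98.5 and 97.3 FPKM, all above the B cells. The level was lower than in PMs by 2.06-fold in CD11b+ B cells (limma log2 difference -1.02, adjusted p = 0.00348) and by 1.91-fold in CD11b- B cells (limma log2 difference -0.92, adjusted p = 0.00346). Hmox1 and Blvrb were at 15.0% and 48.6% of their PM means in CD11b+ B cells and at 0.734% and 52.4% in CD11b- B cells.

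Ferritin and Tfrc mRNAs carry the iron-responsive elements that the Ireb2 protein binds, and the hairpins found in the reference transcripts are shown because they are the feature shared by the storage and import genes. Each is 27 bases, with the CAGTGN loop in capitals, in GENCODE M21 transcripts on GRCm38. The first is in the 5′ UTR of Fth1 (chr19:9982733-9982759, plus strand), the second in the 5′ UTR of Ftl1 (chr7:45459780-45459806, minus strand), and 4 are in the 3′ UTR of Tfrc (chr16:32631220-32631246, chr16:32631599-32631625, chr16:32631664-32631690 and chr16:32631711-32631737, plus strand).
Fth1: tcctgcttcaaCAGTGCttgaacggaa
Ftl1: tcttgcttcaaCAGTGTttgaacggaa
Tfrc a: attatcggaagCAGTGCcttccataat
Tfrc b: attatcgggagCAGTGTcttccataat
Tfrc c: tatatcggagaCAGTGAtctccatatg
Tfrc d: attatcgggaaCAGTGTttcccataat
Such a hairpin was found in 1.34% of 21877 protein-coding genes and in 3 of the 9 genes. A match is a description of the sequence and was not measured as a binding site.

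Fth1 (ENSMUSG00000024661, chr19:9980598-9985098, plus strand) was at nearly the same level in both B cell groups, with 318, 356 and 373 FPKM in CD11b- and 346, 355 and 381 FPKM in CD11b+ B cells. The difference was 0.05 ± 0.15 (log2, SE, limma adjusted p = 0.924), and its sign turned under quantile normalization (-0.070) and without CD11b- replicate 1 (-0.018). PMs had 417, 660 and 698 FPKM, so PM replicate 1 was close to the B cells. Fth1 was 1.69-fold lower in CD11b- B cells than in PMs (limma log2 difference -0.73 ± 0.24, adjusted p = 0.0492) and 1.64-fold lower in CD11b+ B cells, which did not pass (limma log2 difference -0.68 ± 0.26, adjusted p = 0.0892). These calls were not stable: 8 of 15 alternatives called Fth1 in CD11b- B cells and 6 of 15 in CD11b+ B cells, where it passed without PM replicate 1 (adjusted p = 0.0183).

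Ftl1 (ENSMUSG00000050708, chr7:45457944-45459884, minus strand) differed far more between B cells and PMs. It was at 492, 525 and 798 FPKM in CD11b- B cells, at 623, 748 and 723 in CD11b+ B cells, and at 3119, 5750 and 4665 in PMs. The B cell groups overlapped (limma log2 difference 0.24 ± 0.23, adjusted p = 0.728) and every PM library was above every B cell library. Ftl1 was lower than in PMs by 6.46-fold in CD11b+ B cells (limma log2 difference -2.65 ± 0.34, adjusted p = 0.000875) and by 7.46-fold in CD11b- B cells (limma log2 difference -2.89 ± 0.33, adjusted p = 0.000468). Together the ferritin genes took 0.563% to 0.999% of the reads in PMs, 0.204% to 0.229% in the CD11b+ libraries and 0.176% to 0.236% in the CD11b- libraries.

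The ratio of light to heavy ferritin mRNA therefore separated PMs from B cells. Ftl1 over Fth1 FPKM was 7.48, 8.71 and 6.69 in PMs, 1.80, 2.11 and 1.90 in CD11b+ B cells, and 1.55, 1.47 and 2.14 in CD11b- B cells. The ratio in PMs was above every B cell ratio, by 3.92-fold over CD11b+ and 4.47-fold over CD11b- B cells (exact permutation p = 0.1 for each, two-sided, the smallest that 3 against 3 libraries can give). The B cell groups overlapped, with a log2 difference of 0.19 (exact permutation p = 0.4, two-sided). Ferritin pseudogenes had reads equal to at most 2.83% of those on Ftl1 and 0.230% of those on Fth1, and with these reads added the log2 differences from PMs were -1.97 and -2.16. The ratio itself, unlike its comparison between groups, rests on the exon lengths of 3469 bases for Fth1 and 1340 for Ftl1 that divide the values. Ftl1 shares exon bases with Gm10252, which had at most 7 reads in a library.

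**Figure D4:**
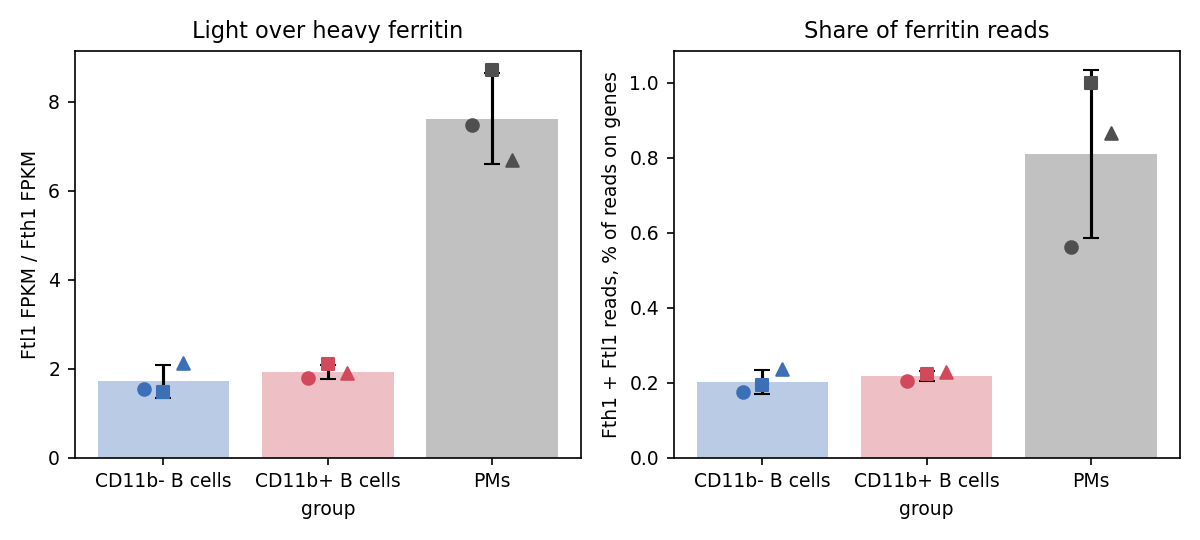
Left, the ratio of Ftl1 to Fth1 FPKM; right, reads on Fth1 and Ftl1 as a percent of reads on genes, with bars for the group mean, error bars for the SD of 3 libraries and points for libraries (circle, square and triangle for replicates 1, 2 and 3). PM ratios of 6.69 to 8.71 lie above the B cell ratios of 1.47 to 2.14, and the B cell groups overlap in both panels.

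Tfrc (ENSMUSG00000022797, chr16:32608920-32632794, plus strand) had the opposite pattern to ferritin. It was at 12.5, 12.5 and 15.0 FPKM in CD11b- B cells, at 11.5, 10.6 and 11.9 in CD11b+ B cells, and at 1.64, 1.40 and 1.27 in PMs. All B cell libraries lay above all PMs, and the CD11b+ libraries lay just below the CD11b- libraries. Tfrc was higher than in PMs by 7.92-fold in CD11b+ B cells (limma log2 difference 2.35 ± 0.23, adjusted p = 0.000210) and by 9.27-fold in CD11b- B cells (limma log2 difference 2.55 ± 0.21, adjusted p = 9.4e-05), and it was called in 15 of 15 alternatives of each comparison. The difference between the B cell groups did not pass (limma log2 difference -0.21 ± 0.15, adjusted p = 0.727). Proliferation genes, which often accompany iron import, summed to 402, 312 and 150 FPKM in CD11b- and 638, 594 and 238 in CD11b+ B cells, and to 42.7 to 49.0 in PMs. Tfrc is also abundant in erythroid precursors, and the erythroid genes summed to 25.7, 13.4 and 2.32 FPKM in CD11b- and 48.6, 50.5 and 39.6 in CD11b+ B cells, and to 1.54 to 1.97 in PMs. The part of proliferation or of erythroid RNA in the Tfrc difference from PMs was not tested.

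Ireb2 (ENSMUSG00000032293, chr9:54863789-54912530, plus strand) was also higher in B cells. It was at 8.59, 7.16 and 5.38 FPKM in CD11b- B cells, at 9.39, 6.87 and 7.96 in CD11b+ B cells, and at 2.21, 2.32 and 3.47 in PMs. The B cell groups overlapped (limma log2 difference 0.18 ± 0.21, adjusted p = 0.762), and all B cell values were above those of PMs. The level was higher than in PMs by 3.02-fold in CD11b+ B cells (limma log2 difference 1.31 ± 0.26, adjusted p = 0.00698) and by 2.64-fold in CD11b- B cells (limma log2 difference 1.13 ± 0.27, adjusted p = 0.0131). The call was lost under quantile normalization in CD11b+ B cells (adjusted p = 0.0597), and in CD11b- B cells under quantile normalization (adjusted p = 0.112), under median-ratio scaling (adjusted p = 0.0898) and without CD11b- replicate 1 (adjusted p = 0.0650) or 2 (adjusted p = 0.0591). Aco1, the gene of the other iron regulatory protein, was at 4.21 to 8.33 FPKM in B cells and 7.37 to 10.5 in PMs and was called in no comparison.

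Other genes of these pathways were described from 7 lists with 85 genes. Between CD11b+ and CD11b- B cells, 59 could be tested, 0 were called by limma in either direction, and 11 were higher and 2 lower at an unadjusted p under 0.05. Their median difference was 0.11, beside 0.03 for all genes, of which 4.65% were higher and 3.04% lower at that p. The acute phase list had 8 tested genes, 3 of them higher at an unadjusted p under 0.05, beside the same 4.65%. These were C3, a complement component, Lcn2, which binds bacterial siderophores, and Lrg1, a leucine-rich plasma glycoprotein, named here after their values were seen. Lcn2, also on the neutrophil list, was at 15.2, 41.2 and 2.0 FPKM in the CD11b+ libraries and 0.0437 or less in the CD11b- libraries (limma log2 difference 3.63, adjusted p = 0.303). Lrg1 was at 8.54, 21.4 and 1.35 FPKM in the CD11b+ libraries and 0.305 to 0.665 in the CD11b- libraries. Both were lowest in CD11b+ replicate 3, as Hp was. The iron exporter ferroportin, Slc40a1, likewise chosen after its values were seen, was at 0.821, 1.49 and 0.00946 FPKM in CD11b+ B cells and at 0.00693 or less in the other libraries (limma adjusted p = 0.644 between the B cell groups).

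Against PMs, most of the called genes on these lists were lower in B cells. In CD11b+ B cells 25 of 66 tested genes were called lower and 6 higher, with a median of -0.34 beside 0.25 for all genes, of which 8.78% were called lower and 21.5% higher. In CD11b- B cells 26 of 64 were lower and 8 higher, with a median of -0.49 beside 0.24 for all genes, of which 11.0% were called lower and 25.8% higher. The same shares of all genes apply to the counts of each list that follow. Of 10 acute phase proteins, 4 were lower in CD11b+ B cells and 5 in CD11b- B cells, and 0 were higher. Lrg1 was at 289, 901 and 471 FPKM in PMs (limma log2 difference for CD11b+ B cells -5.97, adjusted p = 0.000836). C3 was at 53.2 to 64.6 FPKM in PMs and 3.02 or less in CD11b+ B cells (limma log2 difference -4.35, adjusted p = 1.4e-05). Lbp, which presents LPS to its receptor, was at 23.2 to 30.6 FPKM in PMs and at 0.617 or less in B cells (limma log2 difference for CD11b+ B cells -4.48, adjusted p = 1.4e-05). Saa1 had no reads in the 6 B cell libraries, where a count of 0 leaves room for 3 reads in a group, and 0.260 to 0.874 FPKM in PMs, and Saa2 and Saa4 had no reads in any library.

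Among 12 inducers and signalling genes of the acute phase response, 7 were lower in CD11b+ and 8 in CD11b- B cells, and 1 was higher in each, Tnf. Tnf, an inflammatory cytokine, was at 10.5, 11.1 and 10.1 FPKM in the CD11b+ libraries, 8.59, 8.69 and 3.65 in the CD11b- libraries and 0.102, 2.19 and 1.84 in PMs (limma adjusted p = 0.00360 and 0.0237 against PMs). The genes with the lowest adjusted p on the lower side were Cebpb, the interleukin 6 receptor chain Il6ra and the feedback inhibitor Socs3, with log2 differences of -4.92, -3.19 and -2.64 in CD11b+ B cells.

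Genes of iron uptake went in both directions as well. Of the 15 tested genes of iron uptake and ferritin turnover, 5 were lower in CD11b+ B cells than in PMs and 1 was higher. Trf, the gene of transferrin, was at 988, 1574 and 2172 FPKM in PMs and 1.11 to 4.15 in B cells (limma log2 difference for CD11b+ B cells -8.34, adjusted p = 9.8e-07). Slc11a1, the iron and manganese transporter of phagosomes, was at 133 to 158 FPKM in PMs and at 0.268 to 1.81 in CD11b+ B cells (limma log2 difference -6.12, adjusted p = 5.3e-06). Hfe, which binds the transferrin receptor, was lower in CD11b+ B cells (limma log2 difference -3.34, adjusted p = 8.0e-05). Steap4, a metalloreductase, was higher in B cells, at 1.73 to 4.27 FPKM in CD11b+, 2.83 to 14.8 in CD11b- and 0.0352 or less in PMs (limma adjusted p = 0.00372 and 0.00470). Pcbp1, an iron chaperone that delivers iron to ferritin, was at 59.1, 72.1 and 90.6 FPKM in CD11b+, 38.7 to 56.2 in CD11b- B cells and 102 to 130 in PMs, and was called lower in both B cell groups (limma adjusted p = 0.0495 and 0.00186).

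The sensing genes went in both directions. In CD11b+ B cells 3 of 8 were higher than in PMs (Bach2, Hif1a and Keap1) and 3 lower (Epas1, Bach1 and Nfe2l2), and in CD11b- B cells 4 were higher and 2 lower. Bach1 and Bach2 encode haem-binding repressors. Bach1 was at 8.47 to 18.9 FPKM in PMs and at 0.674 to 2.47 in B cells (limma log2 difference for CD11b+ B cells -2.54, adjusted p = 0.00184), and Bach2 was at 0.537 to 1.34 in PMs and 9.08 to 32.2 in B cells (limma log2 difference 2.71, adjusted p = 0.000637). Between the B cell groups Bach1 did not pass (limma log2 difference 0.20, adjusted p = 0.827).

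Among 12 genes of haem and haemoglobin uptake, transport and breakdown, 5 were lower than in PMs in each B cell group and 1 was higher. Lrp1, a receptor of haem bound to haemopexin, was at 80.2 to 85.1 FPKM in PMs and 0.418 or less in B cells (limma log2 difference for CD11b+ B cells -6.06, adjusted p = 8.1e-07). Cd163, the receptor of haptoglobin bound to haemoglobin, was at 2.17 to 5.91 FPKM in PMs and 0.374 or less in B cells (limma log2 difference for CD11b+ B cells -2.11, adjusted p = 0.00484). Blvra differed by -1.13 in CD11b+ and -1.45 in CD11b- B cells on the log2 scale, beside -1.02 and -0.92 for Blvrb. Spic, a transcription factor known from red pulp macrophages, was higher in B cells, at 2.07, 1.38 and 2.18 FPKM in the CD11b+ libraries, 0.479 to 0.552 in the CD11b- libraries and 0.0145 or less in PMs (limma adjusted p = 0.00258 and 0.0106 against PMs, and 0.362 between the B cell groups). Of 7 tested NRF2 target genes, Srxn1 was lower in both B cell groups, and Gclc was higher in CD11b- B cells. Prdx1, an antioxidant enzyme of the same list, had means of 161 FPKM in the CD11b+, 114 in the CD11b- and 147 in the PM libraries and was called in no comparison.

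**Figure D5:**
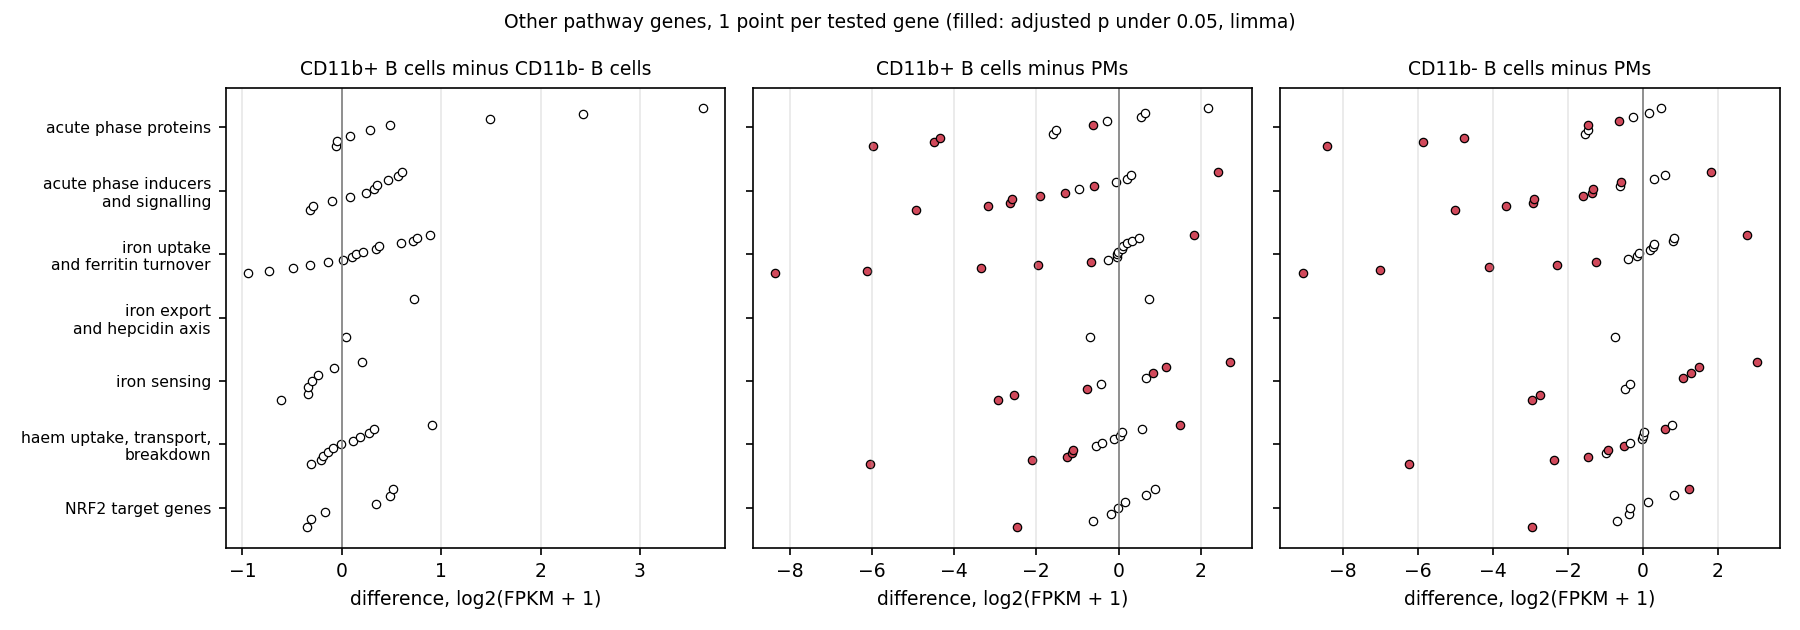
Differences in log2(FPKM + 1) for the tested genes of the 7 lists, 1 point per gene, filled for an adjusted p under 0.05 (limma); lists are rows and comparisons are panels. The left panel has 0 filled points, and in the middle and right panels most filled points lie left of 0, where the B cell level is lower than that of PMs.

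The genes with profiles most like each of the 9 were sought among 12492 other genes with a mean of at least 1 FPKM, by the root mean square (RMS) difference of centred log2(FPKM + 1) profiles over the 9 libraries. For Saa3 these were Cxcl13, Prg4 and Retnla, at RMS differences of 0.38, 0.40 and 0.42, with means of 1627, 2021 and 5871 FPKM in PMs. For Hp they were Ifitm6 at 0.40, then Tubb6 and Igsf6 at 0.72 each. For Hmox1 they were Clec4a3 at 0.27, Anxa2 at 0.48 and Sirpa at 0.62. Clec4a3 averaged 0.199 FPKM in the CD11b-, 7.05 in the CD11b+ and 56.8 in the PM libraries, beside 0.508, 10.4 and 69.2 for Hmox1. For Ftl1 they were Gsto1 at 0.13, the glutathione peroxidase Gpx1 at 0.16 and Ftl1-ps1 at 0.17, of which Ftl1-ps1 is a near copy of Ftl1 and may share its reads. For Tfrc they were D930048N14Rik, Coro2a and Gm30054, at RMS differences of 0.10 to 0.12, and for Ireb2 they were Gm2427, Prkdc and Ube2d3, at 0.12 each. Cp was nearest to Smagp, Slc16a3 and Mocos, Blvrb to Snapc5, Klf7 and Camkk2, and Fth1 to Map3k20, Creb3 and Bet1, at RMS differences of 0.087 to 0.13.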

How the data were processed

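The members and gene lists were chosen with earlier results of these data known. Libraries were grouped by the sample labels. The authors prepared full-length cDNA (SMART-seq HT), trimmed the paired reads, mapped them to GRCm38 with STAR (2.7.2b) and counted reads on genes with featureCounts (1.6.1), and the authors deposited FPKM for 55322 genes. The submitters' notes list GRCm38 and GRCm39, and positions here are those of GENCODE M21 on GRCm38 by identifier. A second deposited table gives, as a normalized signal, size-factor scaled reads of 11063 genes selected by the authors.

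FPKM values times exon length gave whole reads for 100% of values within 0.05 read, and the second table gave the same reads. The main test was limma (3.58.1, trend, two-sided) on log2(FPKM + 1) over the 6 libraries of a comparison, for genes with a mean of at least 0.05 FPKM, with Benjamini-Hochberg adjustment over all genes tested. edgeR (4.0.16) and DESeq2 (1.42.0) on the recovered reads, other pseudocounts, filters and scalings, a replicate block and leaving out each library were alternatives. The script was tested on simulated data with the same dispersion for all genes. That does not measure how the test performs at the spread of these libraries. Single ratios were compared with an exact permutation test. All 9 genes are given in full; from each list, up to 3 called genes a direction with the lowest adjusted p, and genes with a mean of at least 100 FPKM in a group, are named. A count of 0 allows up to 3 reads; reads carry no molecular identifiers, so this covers counting error only. Other columns of values numbered 0.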

Additional observations from a re-analysis of the deposited data

How the results depend on the processing

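Between the B cell groups, the number of the 9 genes called higher was 0 in the main test, 1 (Hmox1) with a pseudocount of 0.1, with a minimum mean of 1 FPKM and with all 9 libraries in the fit, 2 (Hmox1 and Hp) with DESeq2, and 0 to 2 when 1 library was left out, with 2 only without CD11b+ replicate 3. Over all genes the calls higher were 15 in the main test, from 2 without a filter to 42 by edgeR and 356 by DESeq2, and 3 to 40 when 1 library was left out, with 40 without CD11b+ replicate 3. Against PMs, the calls higher in CD11b+ B cells fell from 4760 to 3152 without CD11b+ replicate 2. They were 2927 under median-ratio scaling, 2706 under quantile normalization and 2850 by edgeR, and those of CD11b- B cells were 5404 in the main test and 3411, 3415 and 3200. The calls lower went from 1940 to 3455 in CD11b+ and from 2306 to 4143 in CD11b- B cells by DESeq2. The Fth1 difference turned sign under quantile normalization (-0.070) and without CD11b- replicate 1 (-0.018, the range with 1 library left out being -0.018 to 0.097). Against PMs, the number called higher was 1 in place of 2 under quantile normalization in CD11b+ B cells, under median-ratio scaling and quantile normalization in CD11b- B cells, and ranged from 1 to 2 when 1 library was left out in CD11b- B cells, with Ireb2 lost. The causes were not tested. Of the values of single genes under an alternative, 125 of 134, 128 of 135 and 124 of 135 kept direction and side of the threshold in the 3 comparisons. Cp has no value between the B cell groups at a minimum of 1 FPKM.

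No source says that same-numbered libraries share a mouse, and the replicate numbers of the titles were not taken as pairs, since deviations of same-numbered CD11b+ and CD11b- libraries correlated at 0.20, -0.01 and 0.17 and not all passed 0.1. The library codes in the labels carry the same number in both groups for replicates 1 and 3, the pairs at 0.20 and 0.17, and each of these CD11b+ libraries correlated best with the CD11b- library of its own number. Replicate 2 has different codes. With the replicate block, 0 of the 9 genes were called between the B cell groups (Hmox1 limma adjusted p = 0.114), with 16 calls over all genes, and the block changed no count of members called against PMs. Depth limits Hmox1, Hp and Cp in CD11b- B cells most, with 90, 63 and 122 reads over 3 libraries.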
